A study of Mus musculus with 12 samples.

Results

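Death receptors and TNF receptors, with the adaptor proteins they recruit, were followed at the level of total mRNA in mouse splenic B cells responding to DNA damage. The 9 genes were chosen by name: Fas, Tnfrsf10b, Eda2r, Tnfrsf1a, Tnfrsf1b, Fadd, Tradd, Ripk1 and Cflar. All 9 were found, each in 1 row, among the 29486 genes of the deposited table of normalized counts. B cells of C57BL/6Babr mice, without any genetic modification in the labels, were purified from spleen and activated in culture with LPS, a bacterial mitogen. Control cells received LPS alone (10 μg/ml, 48 h). The second condition received LPS for 48 h and then etoposide (20 μM, 4 h), a topoisomerase II inhibitor that causes DNA double-strand breaks. The third received LPS for 47 h, KU55933 (10 μM), an inhibitor of the ATM kinase, for 1 h, and then etoposide for 4 h. Each condition had 4 libraries, described in the study's methods as biological replicates. No cells received KU55933 without etoposide, the labels do not say whether the LPS control was kept for the last 4 h, and each condition used Illumina indexes of its own, so that index and treatment cannot be told apart.

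Fas, the Trail receptor encoded by Tnfrsf10b, and the TNF receptor TNFR1 encoded by Tnfrsf1a carry a death domain in their cytoplasmic tail. After ligand binding, Fas and the Trail receptor bind the adaptor Fadd, which brings in procaspase-8, while Cflar (c-FLIP) occupies the same platform and limits caspase-8 activation. TNFR1 binds Tradd and Ripk1 and signals mainly to NF-kB unless that branch fails. Tnfrsf1b (TNFR2) lacks a death domain and signals through Traf proteins, and Eda2r is the receptor for the A2 form of ectodysplasin. In germinal centre and activated B cells Fas is a classical brake on survival, and Fas and Tnfrsf10b are textbook p53 target genes in damaged cells.

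The deposited table holds 1 fitted value for each gene and condition, multiplied by 1 factor for each library. Within a condition, any 2 columns kept a constant ratio over all genes, to within 1.42e-14 in log2 units. The table therefore carries no spread between replicates, and no test and no p-value could be obtained from it for any difference below. The column totals stand in for depth and ran from 20400994 to 30575195 normalized counts over the 12 libraries. Values were divided by the library factors, giving 1 level per gene and condition in normalized counts, and log2 fold changes were taken on log2(level + 1). A change of at least 2-fold (1 on this scale) is called a 2-fold change. Of the whole table, 15614 genes had a value of at least 10 in at least 4 libraries and were kept for comparison. Of the 9 genes, 8 were kept: 7 had at least 10 in every library and Eda2r only in those of the damaged cells, while Tnfrsf1a was below 10 throughout. From these values alone, the only error that can be attached to a fold change is counting error. This counting error comes from the fitted values summed over 4 libraries and taken as reads. It leaves out the variation between cultures and animals, and for genes with few reads the fitted values need not equal the reads. It is therefore at best a lower limit.

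Promoter sequence is shown for the receptor genes that were kept for comparison, were at least 2-fold higher after etoposide and have a promoter entry. The entries are those of the RefSeq promoter table (GRCm38.p6), which covers 7 of the 9 genes. Each line gives the 250 bases before the annotated start, from 5′ to 3′ on the strand of the gene: Fas on the plus strand at chr19:34290409-34290658, Eda2r on the minus strand at chrX:97377210-97377459, and Tnfrsf1b on the minus strand at chr4:145246871-145247120. Capitals mark a GC box (GGGCGG, or CCGCCC on the other strand) or a TATA box (TATAAA, searched on both strands).
Fas: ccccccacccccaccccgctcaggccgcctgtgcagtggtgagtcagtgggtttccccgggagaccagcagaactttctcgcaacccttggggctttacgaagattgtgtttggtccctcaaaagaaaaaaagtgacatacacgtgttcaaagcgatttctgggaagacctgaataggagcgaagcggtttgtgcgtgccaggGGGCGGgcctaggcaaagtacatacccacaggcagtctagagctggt
Eda2r: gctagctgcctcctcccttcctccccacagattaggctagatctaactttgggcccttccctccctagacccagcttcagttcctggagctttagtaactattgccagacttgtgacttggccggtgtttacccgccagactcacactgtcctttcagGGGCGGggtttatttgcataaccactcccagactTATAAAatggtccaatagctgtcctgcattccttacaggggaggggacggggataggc
Tnfrsf1b: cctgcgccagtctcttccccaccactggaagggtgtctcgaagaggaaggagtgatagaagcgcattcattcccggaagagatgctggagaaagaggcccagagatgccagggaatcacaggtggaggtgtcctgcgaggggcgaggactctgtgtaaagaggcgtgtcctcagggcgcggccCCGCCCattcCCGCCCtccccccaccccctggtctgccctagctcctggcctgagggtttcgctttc
The Fas window held 1 GC box, starting 47 bases before the start site. The Eda2r window held 1 GC box at 92 bases and a TATA box at 58 bases. In the Tnfrsf1b window 2 GC boxes lay 67 and 57 bases before the start. A GC box was present in 32.7% and a TATA box in 12.4% of all 32851 windows of this length. The p53 half-site consensus, searched on both strands, occurred in 7.13% of all windows and the NF-kB consensus in 3.90%, and neither was found in the windows of the 7 genes. No match in the windows shown overlapped another. These are descriptions of letters in a short window and say nothing about binding elsewhere in the genes.

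With etoposide, the mRNAs of Fas, Tnfrsf10b and Eda2r were 8.03-fold, 16.9-fold and 33.3-fold as abundant as with LPS alone, and that of Tnfrsf1b 2.23-fold. The adaptors Fadd, Tradd and Ripk1 and the inhibitor Cflar stayed within 2-fold. These 4 receptor genes are the 4 of the 9 that passed the filter and were at least 2-fold higher, where 15.1% of all genes kept were 2-fold higher. None of the 9 was 2-fold lower, against 5.17% of all genes kept. Because Eda2r passed the filter only through the damaged cells, it had to be higher there to be counted. The median log2 fold change of the 8 genes that passed was 0.69, and that of all 15614 genes was 0.041.

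The labelled cell type was checked against its markers. The 6 B cell markers had levels from 5408 to 30592 with LPS, and all 6 were lower with etoposide, Pax5 by −2.25 and Cd22 by −2.44 on the log2 scale. Macrophage markers, 6 of 6 above the filter, summed to 407 with LPS, 475 with etoposide and 434 with the inhibitor, and none of the 6 was at 0. With etoposide Csf1r, Cd14 and Cd68 were at least 2-fold higher, the first 2 having passed the filter only through damaged cells, while Lyz2 had a log2 fold change of 0.53, Adgre1 of −0.057 and Itgam, the most abundant of the 6 with LPS, of −0.71 (215 to 131). The 7 T cell markers summed to between 9.19 and 11.3 and the 2 NK cell markers listed to between 1.64 and 2.51, all below the filter. Red blood cell genes summed to between 101 and 204. The part of other cells in the receptor values was not tested, and in bulk RNA fewer cells of a type and less RNA per cell cannot be told apart.

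Fas (ENSMUSG00000024778) (GRCm38, chromosome 19, bases 34290666 to 34327772, plus strand) encodes the receptor of Fas ligand. Its deposited values in the 4 LPS libraries were 272, 302, 314 and 283. The etoposide libraries had 2495, 2797, 3387 and 2711, and those that also had KU55933 had 1269, 1431, 1533 and 1558. Every library of a damaged condition lay above every LPS library, and the libraries with the inhibitor lay between the other groups without overlap. The spread within a condition here reflects library size alone, so that the lack of overlap carries no information on replicates. After scaling, Fas had a level of 325 in LPS cells, 2608 after etoposide and 1409.8 where the inhibitor was added. The log2 fold change with etoposide was 3.00, with a counting standard error of 0.044. Of all genes kept, 2.20% had a larger value.

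Tnfrsf10b (ENSMUSG00000022074, chromosome 14, 69767472 to 69784411) encodes the single mouse Trail receptor with a death domain. Its deposited values were 240, 267, 277 and 249.9 in the LPS libraries. Those with etoposide were 4627, 5186, 6280.5 and 5027, and those with the inhibitor 2902, 3273, 3506 and 3564. The columns of the 3 conditions did not overlap, which restates the 3 fitted values and library sizes and shows no agreement between replicates. Its scaled level was 287 in LPS cells, 4834 after etoposide and 3224 where the inhibitor was added, and the log2 fold change with etoposide was 4.07 (counting standard error 0.046). Only 117 of the genes kept (0.749%) had a larger value. Its difference of 4548 normalized counts was the largest of the 9 genes in absolute terms.

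Eda2r (ENSMUSG00000034457, chromosome X, 97333840 to 97377216) encodes a receptor of the same superfamily that has no death domain. In the LPS libraries its deposited values were 3.16, 3.51, 3.65 and 3.29, so that the gene was close to silent. The etoposide libraries had 120, 135, 163 and 131, and those that also had KU55933 had 48.9, 55.1, 59.0 and 59.996. The columns of the 3 conditions did not overlap, with the same limit. Its scaled level was 3.78 in LPS cells and 126 after etoposide, which makes a log2 fold change of 4.73 with a pseudocount of 1 and of 5.06 without it. The fitted values of the LPS libraries sum to only 13.6, and the counting standard error was accordingly 0.40, the widest among the genes that passed the filter. In absolute terms Eda2r stayed a weakly expressed gene.

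The TNF receptors differed from each other in level. Tnfrsf1b (ENSMUSG00000028599, chromosome 4, 145213463 to 145246870) had deposited values of 1091, 1211, 1259 and 1135 in the LPS libraries. They were 2775, 3110.1, 3767 and 3015 with etoposide and 2190.0, 2470, 2646 and 2689 with the inhibitor. The LPS columns were lowest and the etoposide columns highest, without overlap, again as 1 fitted value per condition times library size. Its scaled level was 1302 in LPS cells and 2899.5 after etoposide, and the log2 fold change was 1.15 (counting standard error 0.025), and 13.0% of genes kept had a larger value. Tnfrsf1a (ENSMUSG00000030341, chromosome 6, 125349362 to 125362484) was below the filter in every condition, at levels of 2.03 in LPS cells, 6.88 after etoposide and 5.84 where the inhibitor was added. Its fitted values sum to 7.32 over the LPS libraries and 30.1 over the etoposide libraries. The log2 fold change of 1.38 had a counting standard error of 0.59 and is given as a value only. Per exon length, Tnfrsf1b exceeded Tnfrsf1a 435-fold with LPS and 286-fold with etoposide. Both ratios rest on the few reads of Tnfrsf1a and on the exon lengths used, so only their large size can be read from them.

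**Figure D1:**
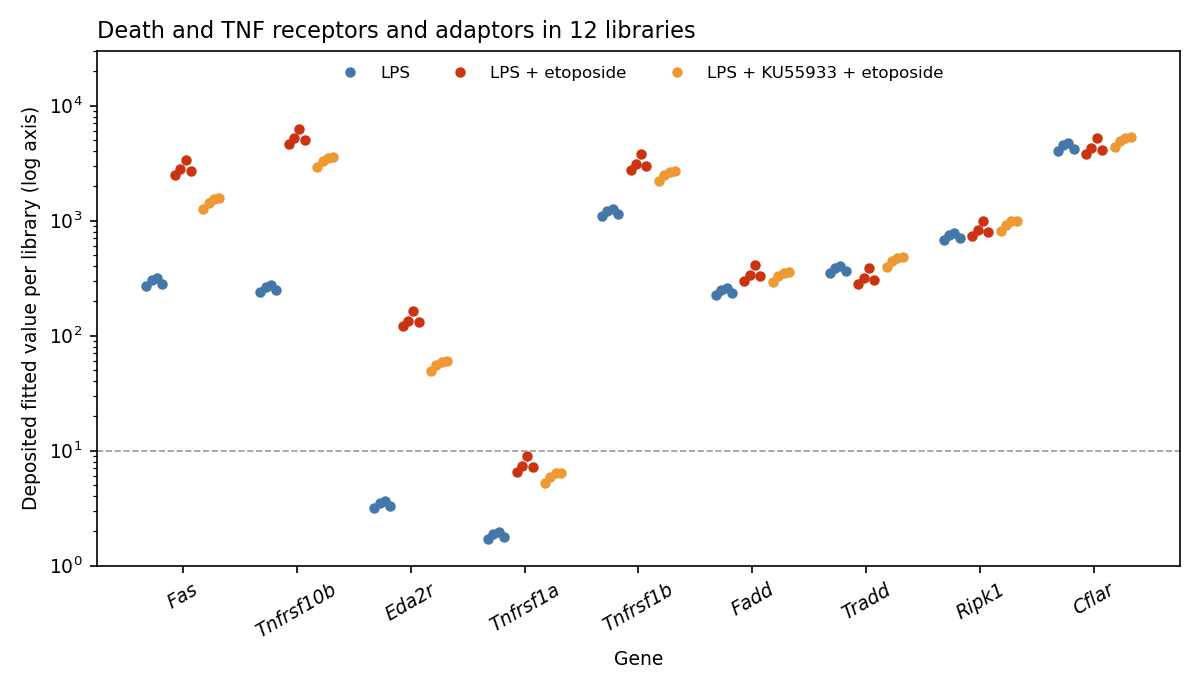
Deposited fitted values of the 9 genes in each of the 12 libraries, on a log axis; each point is 1 library, coloured by condition, and the dashed line is at 10. Within a condition the points differ by library size alone. Fas, Tnfrsf10b, Eda2r and Tnfrsf1b with etoposide lie above their LPS libraries, the 4 adaptor and inhibitor genes lie at similar heights in all conditions, and Tnfrsf1a stays below 10 throughout.

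Among the 9 genes, the adaptors Fadd, Tradd and Ripk1 and the inhibitor Cflar were steadier at the mRNA level with etoposide than the receptors. Fadd (ENSMUSG00000031077, chromosome 7, 144577318 to 144582463), the common adaptor of Fas and the Trail receptor, had levels of 268 in LPS cells, 315 after etoposide and 322 where the inhibitor was added, and its log2 fold change with etoposide was 0.23. Tradd (ENSMUSG00000031887, chromosome 8, 105258286 to 105264609), the TNFR1 adaptor, had levels of 417, 295 and 435, and its value of −0.50 with etoposide was the lowest of the 9 genes. Ripk1 (ENSMUSG00000021408, chromosome 13, 34002363 to 34037147), the kinase at the branch between survival and death, had levels of 809, 768 and 904 and a log2 fold change of −0.075. Cflar (ENSMUSG00000026031, chromosome 1, 58711508 to 58758884), the caspase-8 inhibitor, was the most abundant of the 9 by normalized counts with LPS, at 4845, and had 3987 with etoposide (log2 fold change −0.28) and 4839 with the inhibitor. The counting standard errors of these 4 values lay between 0.015 and 0.061.

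Some exons are shared with neighbours. Ripk1 shares 871 exonic bases with Serpinb6a on the opposite strand and 511 with Gm17084 on its own strand, and Fadd shares 239 with Faddos on the opposite strand. The study names a stranded library kit, and the strand setting of the counting is not given in the sources used here. Serpinb6a had levels of 102, 108 and 192 in the order LPS, etoposide, and KU55933 with etoposide. Faddos stayed between 2.69 and 2.71, and Gm17084 between 3.01 and 7.81. The part of these reads in the counts of Ripk1 and Fadd was not tested.

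Levels of different genes were compared per kilobase of annotated exon (GENCODE M21, GRCm38), which is not the release the reads were counted on. The length was the union of all annotated exons of a gene, 12.7 kb for Cflar and 2.06 kb for Fas, and can exceed that of the mRNA present. The orders of the genes depend on these lengths. With LPS the order was Cflar (382 per kb), Tnfrsf1b (341), Tradd (224), Fas (157), Ripk1 (97.0), Fadd (68.6) and Tnfrsf10b (52.6), with Tnfrsf1a (0.783) and Eda2r (0.641) last. With etoposide Fas and Tnfrsf10b moved to the front, at 1265 and 887 per kb, and Tnfrsf1b came next at 759. Cflar followed at 315, Tradd at 158, Ripk1 at 92.0, Fadd at 80.6, Eda2r at 21.4 and Tnfrsf1a at 2.66. With KU55933 the first 3 were Fas (684), Tnfrsf1b (637) and Tnfrsf10b (591), then Cflar at 382, Tradd at 233, Ripk1 at 108, Fadd at 82.5, Eda2r at 9.21 and Tnfrsf1a at 2.25. Without a spread between replicates it cannot be said which neighbours in these orders truly differ.

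Set against the platform they act on, Fas mRNA per kb was 0.412 times that of the inhibitor Cflar in LPS cells, 4.02 times after etoposide and 1.79 times where KU55933 was added. The corresponding values for Tnfrsf10b were 0.138, 2.82 and 1.55. Relative to the adaptor Fadd, Fas stood at 2.30, 15.7 and 8.29. The ratio of Cflar to Fadd, neither of them a receptor, was 5.58, 3.90 and 4.63. These are ratios of mRNA levels within a condition and do not depend on any factor applied to a whole library. Their sizes do depend on the exon lengths used, while the change of a ratio between conditions does not. In normalized counts with etoposide, Fas (2608) was below Cflar (3987) and Tnfrsf10b (4834) above it. Which message was more abundant per cell was not tested.

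**Figure D2:**
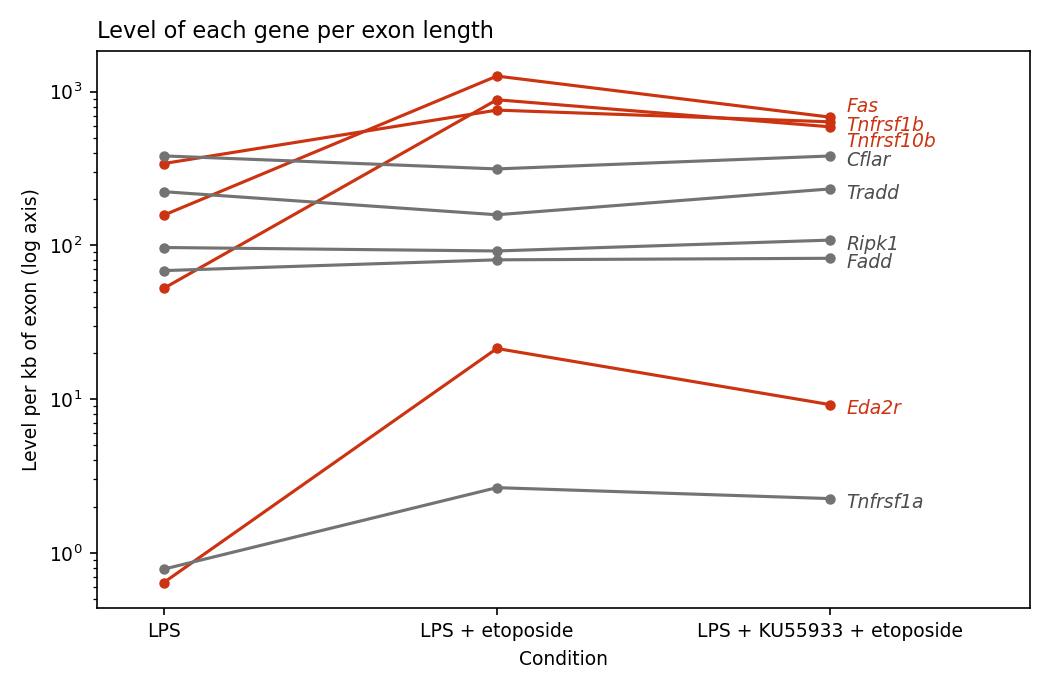
Level per kilobase of exon of each gene in the 3 conditions, on a log axis. Lines join the values of 1 gene, in red for the 4 receptor genes that passed the filter and were at least 2-fold higher with etoposide. Fas lies below Cflar, Tnfrsf1b and Tradd with LPS (157 per kb) and above all others with etoposide (1265 per kb). Cflar, Tradd, Ripk1 and Fadd stay within 2-fold of their LPS values. Heights of different genes depend on the exon lengths used.

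Cells with the ATM inhibitor and etoposide were next compared with cells given etoposide alone. Without cells given KU55933 alone, an effect of the inhibitor by itself and one on the damage response cannot be told apart. Of the 9 genes, Eda2r was the 1 at least 2-fold lower with KU55933 and etoposide than with etoposide alone, where 4.69% of all genes kept were 2-fold lower. None was 2-fold higher, against 1.71% of all genes. The level of Eda2r was 126 without and 54.3 with the inhibitor, a log2 fold change of −1.20 (counting standard error 0.11), and 3.03% of genes kept were further down. Fas was 0.541 times as abundant (log2 −0.89, counting standard error 0.023) and Tnfrsf10b 0.667 times (−0.58, counting standard error 0.016). Tnfrsf1b had a value of −0.25 and Tnfrsf1a, at its very low level, −0.20. On the adaptor side the signs were the other way: 0.56 for Tradd, 0.28 for Cflar, 0.23 for Ripk1 and 0.033 for Fadd. For Fadd this is less than its counting standard error of 0.056. The median of the 8 genes was −0.11 and that of all genes kept −0.049.

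Compared with undamaged cells, the cells with KU55933 and etoposide still had more receptor mRNA. Fas, Tnfrsf10b and Eda2r were at least 2-fold higher, 3 of the 8 genes kept, where 11.9% of genes kept were 2-fold higher. Eda2r passed the filter only through the damaged cells and so had to be higher there to be counted. With at least 10 in every library, 2 of 7 genes were 2-fold higher, beside 8.29% of all genes passing that filter. No gene of the 9 was 2-fold lower, against 5.36% of genes kept. Fas stood at 4.34 times its LPS level (log2 2.11), Tnfrsf10b at 11.2 times (3.49) and Eda2r at 14.4 times (3.53). The counting standard errors of these values were 0.046, 0.047 and 0.40. Tnfrsf1b, at 1.87 times its LPS level (log2 0.90), was just under 2-fold. Cflar, at −0.0019, and Tradd, at 0.060, were close to their LPS levels, and Ripk1 and Fadd had values of 0.16 and 0.27. The median was 0.58 for the 8 genes and 0.068 for all genes. The 3 comparisons share libraries and are therefore not independent of each other.

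**Figure D3:**
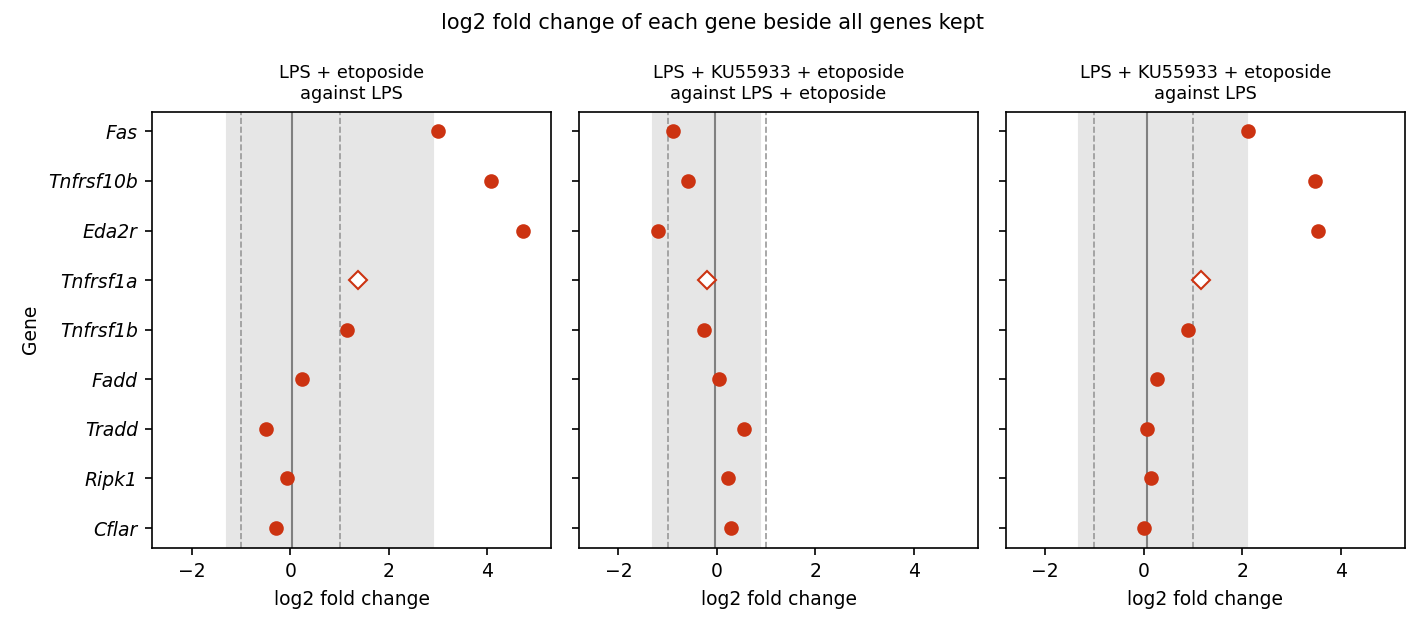
log2 fold change of the 9 genes in the 3 comparisons; the grey band holds the central 95% of the 15614 genes kept, the solid line is their median and dashed lines mark 2-fold. The open diamond is Tnfrsf1a, which did not pass the filter. Fas (3.00), Tnfrsf10b (4.07) and Eda2r (4.73) lie above the band with etoposide, and none of the 9 leaves the band in the comparison with and without KU55933.

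Cdkn1a, the p53 target that encodes the cell cycle inhibitor p21, served as the check of the damage response. Its level was 402 in LPS cells, 13655 after etoposide and 10871 where the inhibitor was added. In the cells with the inhibitor Cdkn1a was at 0.796 times its etoposide level. The corresponding values were 0.431 for Eda2r, 0.541 for Fas, 0.667 for Tnfrsf10b and 0.839 for Tnfrsf1b.

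Genes most like Fas, Tnfrsf10b and Eda2r were sought over the 3 conditions, as the smallest distance over the log2 fold changes with etoposide and with KU55933 under etoposide. The search covered 10867 genes with a mean level of at least 100. Nearest to Fas were Homer3 (distance 0.028), Mfge8 (0.046) and Pidd1 (0.087), the last a death domain protein itself. Slc19a2 (0.054), a thiamine transporter, lay nearest to Tnfrsf10b, before Matn1 (0.14) and Rap2a (0.24). Those nearest to Eda2r were Slc35e4 (0.016), Efnb2 (0.10) and Zfp385a (0.12). Among the receptors themselves the distances were larger: 0.90 between Tnfrsf10b and Eda2r, 1.11 between Fas and Tnfrsf10b and 1.76 between Fas and Eda2r. With 3 conditions a gene has only 2 coordinates here, so that close neighbours are easily found.

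**Figure D4:**
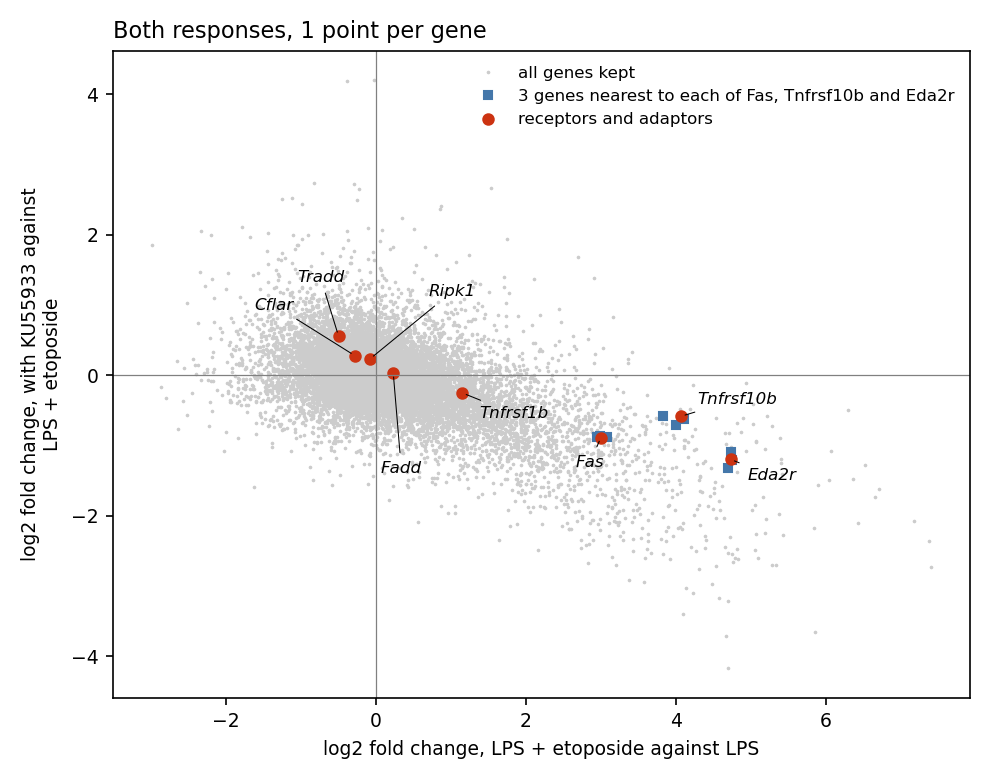
Every gene kept, by its log2 fold change with etoposide (x axis) and with KU55933 under etoposide (y axis). Red points are the 8 genes that passed the filter, and blue squares are the 3 genes nearest to each of Fas, Tnfrsf10b and Eda2r. Both axes use the libraries with etoposide alone, which by itself tilts the cloud downward to the right. Fas, Tnfrsf10b and Eda2r lie far to the right and below 0, and the adaptors lie within the dense centre.

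Other genes of these pathways were taken from 5 lists. Among 12 TNF family ligands, 9 passed the filter, of which none was 2-fold higher and 3 were 2-fold lower with etoposide, beside 15.1% and 5.17% of all genes kept. Those lower were Ltb (1540.5 to 365, log2 fold change −2.07), Lta (144 to 66.1, −1.11) and Tnf (241 to 114, −1.08), the last being the ligand of both TNF receptors. With KU55933 under etoposide, 3 ligands were 2-fold higher, Tnfsf15 (12.0 to 51.3), Tnfsf11 (4.48 to 14.1) and Tnfsf8 (92.3 to 191), beside 1.71% of all genes kept. Tnfsf11 passed the filter only through the cells with KU55933 and so had to be higher there to be counted. The median of the list was −0.074 with etoposide and 0.20 with the inhibitor.

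The list of 15 other TNF receptors left out the CD40 and BAFF receptor family, which was not counted here. Of these 15, 13 passed the filter. With etoposide 11 had values above 0, 6 were 2-fold higher and none was 2-fold lower, with a median of 0.57. Of all 15614 genes kept, 8266 had values above 0, and the 2-fold shares were again 15.1% and 5.17%. Tnfrsf26, a mouse relative of the Trail decoy receptors, went from 511 to 2916 with etoposide and was at 1828 with KU55933. Tnfrsf18 (GITR) went from 79.6 to 368 and was at 203 with the inhibitor, and Tnfrsf9 (4-1BB) had levels of 4.52, 19.0 and 10.3, so that it passed the filter only through the damaged cells where it was high. Tnfrsf26, Tnfrsf22 and Tnfrsf23 are closely related neighbours, and reads shared among them were not examined. With the inhibitor, Tnfrsf8 (CD30) alone was 2-fold lower, from 90.0 to 33.9, where 4.69% of all genes kept were, and the median of the list was −0.39. Of 4 other receptors with a death domain, 3 passed the filter, and Tnfrsf25 was 2-fold higher with etoposide, from 2.04 to 10.2, having passed the filter only through the etoposide libraries. None of the 3 passed 2-fold with KU55933. Their medians were 0.22 and −0.050.

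All 16 genes of the list for death signalling below the receptors passed the filter, and with etoposide 2 were 2-fold higher and 2 were 2-fold lower, beside 15.1% and 5.17% of all genes kept. Of those higher, Pidd1, which assembles a caspase-2 platform, went from 897 to 7635. Bid, which carries the caspase-8 signal to mitochondria, went from 2651 to 1131, and Fcmr, first described as an inhibitor of Fas killing, from 2234 to 821. Casp8 itself was at 2497 with LPS, 1474 with etoposide and 1515 with the inhibitor. The median of this list was −0.036 with etoposide and −0.087 with KU55933 under etoposide, where no gene of it passed 2-fold. Pidd1 was then at 4163.

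The TNF receptor complex I and its NF-kB arm were close to the centre of all genes. Of 24 genes, all of which passed the filter, 1 was 2-fold higher and 2 were 2-fold lower with etoposide, where 15.1% and 5.17% of all genes kept were, and the median was −0.00020. Cyld, a deubiquitinase that restrains the complex, went from 3603 to 7492, while Traf5 went from 871 to 311 and Map3k5, a stress kinase, from 2746 to 981. With KU55933 under etoposide none passed 2-fold and the median was 0.093. In KU55933 and etoposide against LPS, the ligands held 3 genes 2-fold higher and 2 lower, and the other receptors with a death domain 1 and 0. The other TNF receptors held 6 and 0, death signalling 2 and 2, and complex I 0 and 1. The shares of all genes kept were 11.9% and 5.36%. Tnfsf11 and Tnfrsf9, both counted as higher, passed the filter only through damaged cells where they were high. The 1 death domain receptor, Tnfrsf25 (2.04 to 5.25), was below 10 in both conditions compared and passed through the cells with etoposide alone.

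**Figure D5:**
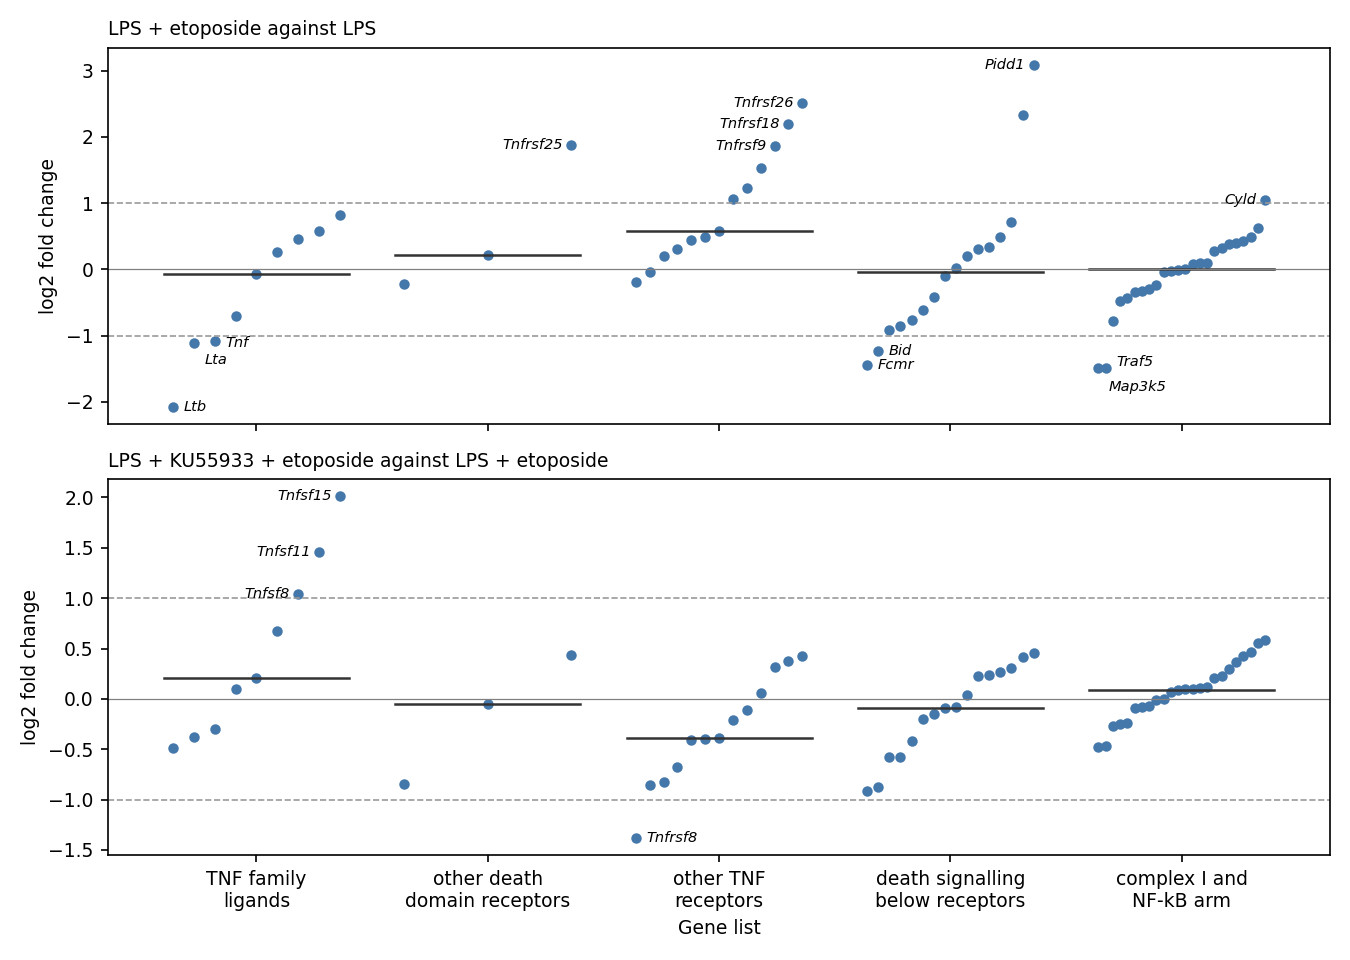
log2 fold change of the genes that passed the filter in 5 pathway lists, with etoposide (top) and with KU55933 under etoposide (bottom); each point is 1 gene, ordered by value within its list, horizontal bars are list medians and dashed lines mark 2-fold. With etoposide the list of other TNF receptors has the highest median (0.57) and the ligands hold 3 genes below −1. The list of other TNF receptors leaves out the CD40 and BAFF receptor family.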

How the data were processed

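Total mRNA of mouse splenic B cells was sequenced in 12 libraries, 4 per condition. According to the study's methods and the submitters' processing notes, the authors used Trim Galore with cutadapt 1.2.1, mapped reads to GRCm38 with TopHat2 2.0.12, counted them with HTSeq on Ensembl release 78 and fitted DESeq2 1.6.3. The values in the authors' deposited table are a signal on the scale of reads, namely the value fitted per condition times a library factor. By default that version of DESeq2 moderates fold changes toward 0, and the sources used here do not state whether this was used. No value in the table was at 0, the smallest being 0.0635. Tnfrsf11b, far below the filter, had nearly equal levels of 0.080, 0.094 and 0.083 in the 3 conditions. Fold changes of genes with few reads, among them Eda2r, Tnfrsf1a and Tnfrsf25, are therefore to be read as fitted and probably moderated values. The 3 deposited tables of the authors' own comparisons hold fold changes, standard errors and p-values and were not used. Limma, planned for values with replicate spread, could not be run because the columns of a condition hold no such spread.

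Library factors were medians of ratios over genes with at least 10 in every column. The filter asked for a value of 10 or more in 4 libraries or more, and a pseudocount of 1 was added before log2. Computation used Python 3.11.15, numpy 2.4.6, pandas 2.3.3 and matplotlib 3.10.9, and the functions were tested on simulated data. Alternatives were TMM factors, library totals, quantile normalization, pseudocounts of 0.5 and 5, other filters, 1.5-fold, and leaving out each library. The genes and lists were chosen with earlier results of these data known. Named genes are the 9, up to 3 2-fold changes each way per list for etoposide and for KU55933, the 3 nearest genes of 3 receptors, Cdkn1a and cell type markers. Of the genes this names, 1 is counted in its list but not reported here. Casp8, Tnfrsf22, Tnfrsf23, the genes overlapping Fadd and Ripk1, Ripk3, Mlkl and the ligands in the closing section were named after their values were seen.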

Additional observations from a re-analysis of the deposited data

How the results depend on the processing

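Under TMM factors, library totals and quantile normalization, all log2 fold changes of the 8 genes that passed the filter kept their sign, except those of Tradd and Cflar in KU55933 and etoposide against LPS, which lie near 0 and turned under 2 of these 3 scalings each. Over these scalings Fas lay between 2.89 and 3.07 with etoposide, Tnfrsf10b between 3.96 and 4.14, Eda2r between 4.29 and 4.79 and Tnfrsf1b between 1.04 and 1.23, and Eda2r with KU55933 between −1.16 and −1.12. With a pseudocount of 5 Eda2r was at 3.90 with etoposide and at 2.76 for KU55933 and etoposide against LPS, since its LPS level is low. With library totals Tnfrsf1b was 2-fold higher with KU55933 and etoposide than with LPS (1.03). The median of all genes shifted from 0.041 with etoposide to −0.073 with TMM factors, 0.11 with library totals and −0.098 with quantile normalization, and from 0.068 to 0.20 with library totals for KU55933 and etoposide against LPS. The median of the 8 genes moved by more than counting error to 0.58 with TMM factors for etoposide against LPS, and to 0.71 with library totals for KU55933 and etoposide against LPS. Without a filter, which adds Tnfrsf1a, the 3 medians were 1.15, −0.20 and 0.90 in the order etoposide, KU55933 under etoposide, and both against LPS. With at least 10 in every library, which removes Eda2r, they were 0.23, 0.033 and 0.27. Under that filter 0 genes were 2-fold lower with KU55933, beside 2.39% of all genes passing it. At 1.5-fold 2 genes were lower with KU55933, beside 11.9% of all genes kept, and Tnfrsf10b, at −0.584, was only just short of that size. Leaving out 1 library moved no log2 fold change of the 8 genes by more than 0.0126, which only reflects the scaling, since every column of a condition holds the same fitted value. No paired analysis was possible because the columns hold no spread between replicates. The table limits every statement here to sizes of difference: neither the variation between cultures nor the error of a single library can be recovered from it, and for Tnfrsf1a and for Eda2r with LPS the fitted values rest on few reads.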

Other observations

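The ligand genes of these receptors were measured in the same cells. Fasl, which encodes the ligand of Fas, was below the filter, with levels of 2.09 in LPS cells, 8.47 after etoposide and 4.54 where KU55933 was added. Tnfsf10, which encodes Trail, had levels of 143, 172 and 184 in the same order, and Eda, the gene of ectodysplasin, 15.3, 21.4 and 15.0. Tnf had 241, 114 and 87.5. Tnf, the ligand of both TNF receptors, was thus lower with etoposide while the mRNA of its receptor Tnfrsf1b was higher. In the necroptosis branch, Ripk3 had levels of 1050.0, 1726 and 1156 and Mlkl 201, 254 and 221. None of these values has a test, for want of spread between replicates.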
